A study of Mus musculus with 4 samples.

Results

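Early cardiomyocytes of the mouse Mesp1 lineage were examined at E8.0 and E8.25, stages in days of embryonic development at which the heart first forms. To be counted, a cell needed 1000 or more detected genes, no more than 10% of its UMIs (distinct captured mRNA molecules) from mitochondrial genes, and a sarcomere signature in which at least 5 of the 8 sarcomere genes Tnnt2, Myl4, Myl7, Actc1, Tnni1, Ttn, Myh6 and Myh7 had 2 or more UMIs. Of 10531 retained cells of both stages, 470 met this rule, 395 of 7577 at E8.0 and 75 of 2954 at E8.25. The 8 genes therefore describe how the cells were chosen. They were kept in the fits across all genes, and no call on them is used below.

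The study used single-cell RNA sequencing to sort out the cell populations of the cardiopharyngeal mesoderm, which forms parts of the heart and muscles of the head and neck. There were 4 libraries, 2 early (E8.0, E8.25) and 2 late (E9.5, E10.5), each from embryos pooled by stage, and 22625 of 22662 deposited cells were retained. All embryos had the genotype Mesp1Cre;Rosa26-GFPflox/+ on the Swiss Webster strain, with no treatment and no mutant group, so that Cre expressed from Mesp1 in early mesoderm marked descendants with GFP for good, and living GFP+ DAPI- cells were sorted. Dissection took the upper part of the body for both early libraries and the heart with the pharyngeal apparatus for both late ones, so that stage and dissected region changed together. With 1 library per stage, no test between E8.0 and E8.25 was possible, and the 95% intervals below cover counting error only, not the variation between embryos.

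Cardiomyocytes are the contractile cells of the heart, and in the mouse they first arise in the cardiac crescent, which fuses into a beating heart tube. Progenitors of the first heart field, which express Tbx5, differentiate early and give mainly the left ventricle, whereas those of the second heart field, which express Isl1, join the tube later at its outflow and inflow ends. Differentiation is driven by transcription factors such as Nkx2-5, Gata4, Tbx5, Mef2c and the cofactor myocardin (Myocd), which switch on the genes of the sarcomere, the repeating unit of actin and myosin filaments.

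The summed early cardiomyocytes held 8518784 UMIs at E8.0 and 2636609 at E8.25. Their median depth was 20163 UMIs per cell at E8.0, close to 21736.5 in the other cells of that library, and 34352 UMIs at E8.25, against 35548 in the other cells. The median number of detected genes was 4225 and 5466, and mitochondrial genes gave a median of 2.06% and 1.74% of UMIs. The highest doublet scores, removed only as an alternative, fell on 53 of 395 early cardiomyocytes at E8.0 (13.4%, against 6.06% of all cells) and on 2 of 75 at E8.25 (2.67% against 2.37%). The E8.0 and E8.25 libraries shared 41 cell barcodes, none of them between early cardiomyocytes.

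Early cardiomyocytes made up 5.21% of the E8.0 cells (exact 95% binomial interval 4.72 to 5.74%) and 2.54% of the E8.25 cells (2.002 to 3.17%). Because the rule counts raw UMIs and the E8.25 cells were sequenced more deeply, each cell was also thinned to 10000 UMIs before the rule was applied. The shares were then 4.30% (3.83 to 4.82%) of 6625 cells at E8.0, with 952 shallower cells left out, and 1.78% (1.33 to 2.32%) of 2929 cells at E8.25, with 25 left out. The log2 ratio of the E8.25 to the E8.0 share was -1.04 (-1.41 to -0.68), and -1.28 (-1.73 to -0.85) after thinning. Under the same rule 12.8% of the E9.5 cells (517 cells) and 3.58% of the E10.5 cells (288 cells) were cardiomyocytes, in another dissected region.

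The 8 sarcomere genes were not switched on to the same extent. At E8.0 the median cell had 83 UMIs of Myl7 (atrial regulatory light chain), 37 of Myl4 (atrial essential light chain), 29 of Tnnt2 (cardiac troponin T), 23 of Actc1 (cardiac actin), 22 of Tnni1 (slow skeletal troponin I, the embryonic form in the heart) and 14 of Ttn (titin, the molecular spring). At E8.25 the medians were 77, 52, 29, 24, 29 and 4 UMIs in the same order. The myosin heavy chains were lower, with a median of 1 UMI of Myh6 and 3 of Myh7 at E8.0 and of 0 and 1 at E8.25. These are raw counts, and the E8.25 cells were sequenced more deeply, so the medians do not compare the stages. After thinning, the mean went from 26.9 to 22.1 UMIs for Myl4, from 12.9 to 12 for Tnni1 and from 68.8 to 43.4 for Myl7. Of the 8 genes only Myh6 did not have a lower thinned mean at E8.25 (2.13 and 2.15). Myh6 reached the threshold in 49.1% of early cardiomyocytes at E8.0 and in 32% at E8.25, and Myh7 in 69.1% and 48%, whereas Myl7 reached it in every one of them. Myh6 (chromosome 14, 54941921 to 54968017, mm10) and Myh7 (54970684 to 54994626 on the same chromosome) are adjacent genes with related sequences, and how the counting treated reads that fit both was not tested. Outside the early cardiomyocytes the light chain Myl7 reached 2 UMIs in 28.6% of the E8.0 cells and 29.0% of the E8.25 cells and Tnni1 in 12.6% and 19.2%, but Ttn in only 0.153% and 0.104%. As a measure of free RNA, cells with at least 5 of 10 primitive erythroid markers were used, since erythroid cells should lack sarcomere mRNA. That set was not free of early cardiomyocytes, with 1 among 185 cells at E8.0 and 7 among 630 at E8.25. In it 28.6% of thinned cells had a UMI of Myl7 at E8.0 and 27.0% at E8.25, against 1.65% and 1.59% for Ttn.

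**Figure D1:**
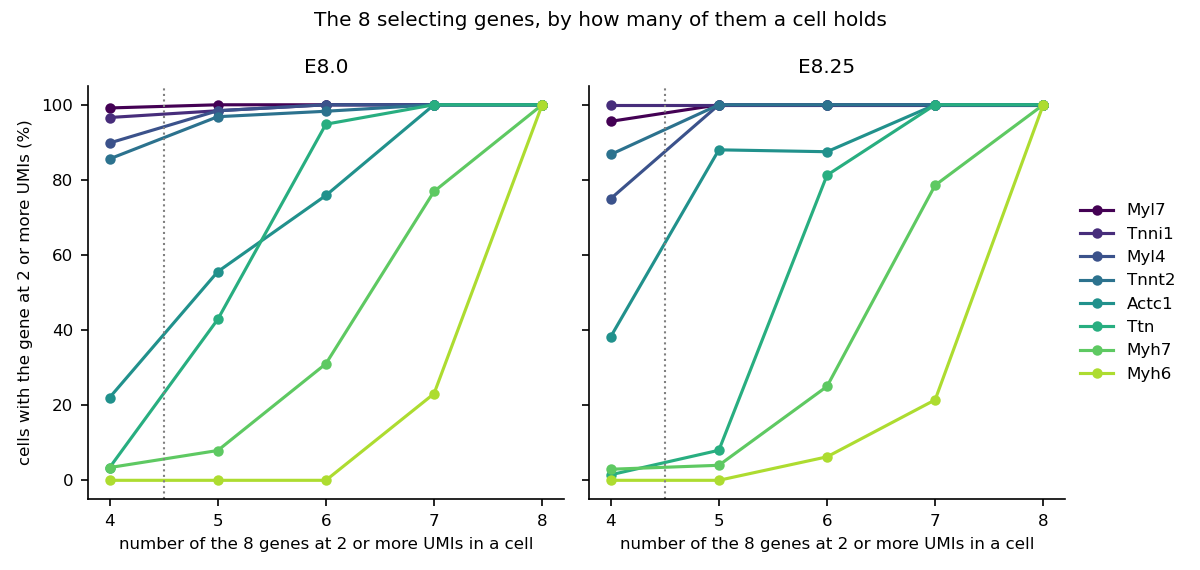
Share of cells (%) in which each of the 8 genes had 2 or more UMIs, against the number of these genes in a cell, at E8.0 (left) and E8.25 (right). The dotted line marks the threshold of the rule, and Myh6 stays lowest up to 7 genes (23.1% of cells at E8.0), with Myh7 next lowest from 5 to 7 genes (76.9%).

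Sorted by how many of the 8 genes they had, the cells formed a graded series with a similar order of genes in both libraries, as the plot of the share of cells at the threshold shows. Exactly 5, 6, 7 and 8 genes were found in 63, 58, 104 and 170 cells at E8.0 and in 25, 16, 14 and 20 cells at E8.25. Cells just outside the rule, with exactly 4 genes, numbered 118 at E8.0 and 68 at E8.25. Ttn reached the threshold in 3.39% of the E8.0 cells with 4 genes, in 42.9% with 5, in 94.8% with 6 and in all with 7. Actc1 was at the threshold in 22.0%, 55.6%, 75.9% and 100% of the same cells. From 5 genes on the myosin heavy chains were lowest, with Myh7 at 3.39%, 7.94%, 31.0% and 76.9%, and Myh6 at 0%, 0%, 0% and 23.1%. At E8.25 Actc1, at 38.2% and 88% of cells with 4 and 5 genes, was ahead of Ttn at 1.47% and 8%. Myh7 was at 2.94% and 4% of the same cells, above Ttn with 4 genes and below it with 5, and Myh6 was at 0% in both. Since the number of genes defined these groups, the order is a description of the chosen cells and not a time course.

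The cell type label was checked on cardiomyocyte genes that the rule did not use, with levels given as CPM (UMIs per 1000000 UMIs of the summed cells). The 16 genes listed for this check were Actn2, Tnnc1, Myl3, Mybpc3, Nebl, Csrp3, Nkx2-5, Gata4, Tbx5, Tbx20, Smyd1, Myocd, Ryr2, Atp2a2, Pln and Slc8a1, a choice made from longer lists with earlier results known. They stood between 7.21 and 849 CPM at both stages, with Pln as the exception. Tnnc1 (cardiac troponin C) was at 849 CPM (95% Poisson interval 830.0 to 869) in the first and 607 CPM (578 to 638) in the second library, against 7.99 and 6.53 CPM in the other cells. Nkx2-5 was at 452 CPM (438 to 467) and 305 CPM (285 to 327), against 14.9 and 8.98 CPM. After thinning, 89.1% and 72% of early cardiomyocytes had a UMI of Nkx2-5, against 8.37% and 6.13% of the other cells and 1.10% and 6.04% of the erythroid cells. Pln (phospholamban, a brake on the calcium pump) was at 1.76 and 9.86 CPM. All 16 genes were higher than in the other cells of their library at both stages. Because the genes were chosen with results known, and the cells by sarcomere genes, this count cannot test the label and is a description. No share over all measured genes stands beside it. Hand1, a listed gene outside the 16, was lower than in the other cells at E8.0 (log2 ratio -0.43) and higher at E8.25 (1.28). Of the full list of 23 other sarcomere genes, Myoz2 and Myom2 had no UMI at either stage, and 20 of 23 calcium handling and excitation genes were detected at E8.25.

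Of the marker lists of other cell types, the endothelial, erythroid, paraxial and neural crest lists summed to less than in the other cells at both stages, and the epithelial and mesothelial lists to more. Of the skeletal muscle regulators, Myf5, Myod1, Myog, Myf6, Pax7 and Msc had no UMI in any early cardiomyocyte of either stage. Lhx2 of the same list was at 0.939 and 1.90 CPM, against 2.40 and 3.53 CPM in the other cells. The 12 endothelial markers summed to 236 and 190 CPM, against 509 and 351 CPM in the other cells, and 16 cells at E8.0 and 6 at E8.25 had at least 3 of these markers. The 12 epithelial and endoderm markers summed to 608 and 884 CPM, against 539 and 401 CPM in the other cells, most of it from Krt8 (338 and 487 CPM) and Krt18 (248 and 369 CPM), which simple epithelia and early cardiac cells both make. Of the 12 markers, 9 were detected at E8.0 and 8 at E8.25. Cdh1, Cldn6 and Shh were at 0 at both stages and Foxa2 at E8.25. At least 3 of the markers were found in 27 of 395 cells at E8.0 and in 15 of 75 at E8.25. The 9 mesothelial markers summed to 238 and 324 CPM, against 223 and 203 CPM in the other cells, most of it from Sparc (159 and 209 CPM), a matrix protein of many mesodermal cells. Of the same list Wt1 was at 0.470 and 4.17 CPM and Msln at 0, and 11 cells at E8.0 and 8 at E8.25 had at least 3 of the markers. The 10 primitive erythroid markers summed to 354 and 2815 CPM, against 1808 and 21185 CPM in the other cells. At E8.25 all 75 early cardiomyocytes had at least 3 erythroid markers, within a narrow range of 21.5 to 45.2 UMIs per 10000 (median 27.8), whereas at E8.0 the median was 1.09 and 4 of 395 cells had 3 markers, with a highest cell of 399 per 10000. The part of these markers in the results below was not tested, except for the scaling named there.

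Genes that stood far higher in early cardiomyocytes than in the other cells of their libraries included most of the other sarcomere genes measured, and this contrast is a description because the same cells were chosen by sarcomere genes. Of 4808 genes at 20 CPM or more in the early cardiomyocytes of both libraries, with the 8 genes of the rule left out, 114 were at least 4-fold higher in both libraries (2.37%) and 4 at least 4-fold lower (0.0832%). The minimum was set on early cardiomyocytes, so genes near 0 in them could not count as lower. Among the other sarcomere genes, 17 of the 18 at that level were at least 4-fold higher, with a median log2 difference of 6.12 at E8.0 and 6.29 at E8.25, against -0.04 and 0.05 over all genes compared. The same held for 6 of 10 smooth and skeletal muscle contractile genes, 8 of 15 cardiac transcription factors, 4 of 7 genes of calcium handling and excitation, and 4 of 8 adhesion and junction genes. The numbers were 2 of 17 signalling genes, 2 of 9 second heart field and outflow genes and 3 of 15 mitochondrial and fuel genes. They were 2 of 4 ventricular genes and 2 of 4 juxtacardiac genes (genes of progenitors beside the crescent). None of the 16 glycolysis, 17 S phase, 17 G2/M phase and 2 atrial genes was at least 4-fold higher.

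The gene with the highest smaller-of-both ratio was Tdgf1 (Cripto, the co-receptor of Nodal), at 249 CPM in early cardiomyocytes and 0.707 CPM in the other cells at E8.0 and at 75.1 and 0.0837 CPM at E8.25. Atcayos was next, at 22.7 and 27.3 CPM against 0.0688 and 0.0186 CPM in the other cells. Ankrd1 (a stretch-responsive titin-binding protein) followed at 687 and 430.1 CPM, 381-fold and 275-fold above the other cells. After it came Myl3 (the ventricular and slow skeletal essential light chain) at 618 and 434 CPM, 278-fold and 237-fold above. Several of the leading genes encode parts of the Z-disc, where the actin filaments are anchored. Csrp3 (muscle LIM protein) was at 269 and 264 CPM, Tcap (telethonin) at 41.0 and 35.7 CPM, Ldb3 at 38.6 and 33.4 CPM and Mybpc3 (myosin-binding protein C, of the thick filament) at 91.6 and 85.3 CPM, each at least 126-fold above the other cells. Genes named after other muscle types were among them too: Acta1 (skeletal actin) at 170.4 and 160.4 CPM, Cnn1 (smooth muscle calponin) at 155 and 147 CPM and Myl1 (fast skeletal light chain) at 89.3 and 34.1 CPM. Acta2 (smooth muscle actin) was at 1528 and 1675 CPM, 20-fold and 19.5-fold above the other cells. The remaining leading genes were Smpx, Rassf5, Fbxl22, Thbs4, Asb2, RP23-455C13.7, Synpo2l and Hspb7, at 21.2 to 254 CPM. On the low side stood the haemoglobin genes Hbb-bh1, Hba-x and Hba-a1, and Fst (follistatin, an inhibitor of activin), at 21.8 and 23.5 CPM against 196 and 224 CPM.

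Cardiac transcription factors were spread over a wide range. Mef2c was at 606 and 309 CPM, Nkx2-5 at the values above, Tbx20 at 299 and 52.3 CPM, and Smyd1 (a muscle methyltransferase needed for the ventricle) at 131 and 101 CPM. Lower down were Gata4 at 70.9 and 71.3 CPM, Myocd at 68.7 and 28.4 CPM, and Tbx5 at 51.7 and 63.3 CPM. Isl1, the second heart field factor, stood between them at 59.4 CPM (54.3 to 64.8) and 78.1 CPM (67.8 to 89.6), and Tbx1, the pharyngeal T-box factor of the study's title, at 8.69 and 22.0 CPM, below 35.3 and 53.0 CPM in the other cells. Of the calcium genes, the pump Atp2a2 was at 232 and 211 CPM against 78.2 and 58.3 CPM in the other cells, the release channel Ryr2 at 33.0 and 25.4 CPM and the exchanger Slc8a1 at 15.8 and 7.21 CPM.

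Stretches of 250 bases just upstream of 6 genes are shown so that the letters can be set beside the levels. Of these genes Myl7, Actc1, Myl3, Acta1 and Ttn carry one of the short motifs by which serum response factor (the CArG box) and MEF2 factors bind muscle genes, and Nppa, the natriuretic peptide gene described below, carries other cardiac motifs. They were taken from RefSeq on GRCm38.p6, run 5′ to 3′ on the strand of the gene, and end at the base before the annotated start. Capitals mark a CArG box in Myl7, Actc1, Myl3 and Acta1, a MEF2 site in Ttn, a TATA box (TATAAA) in Acta1 and Nppa, and a T-box motif (AGGTGTGA, here on the opposite strand) next to an NKX2-5 motif (TNAAGTG) at the far end of Nppa.
Myl7 (chr11:5898783-5899032, minus strand): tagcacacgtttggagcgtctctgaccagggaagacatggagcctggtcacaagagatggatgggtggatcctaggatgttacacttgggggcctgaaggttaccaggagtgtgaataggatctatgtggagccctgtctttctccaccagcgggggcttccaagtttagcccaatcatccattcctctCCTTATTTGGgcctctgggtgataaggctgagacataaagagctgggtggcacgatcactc
Actc1 (chr2:114052876-114053125, minus strand): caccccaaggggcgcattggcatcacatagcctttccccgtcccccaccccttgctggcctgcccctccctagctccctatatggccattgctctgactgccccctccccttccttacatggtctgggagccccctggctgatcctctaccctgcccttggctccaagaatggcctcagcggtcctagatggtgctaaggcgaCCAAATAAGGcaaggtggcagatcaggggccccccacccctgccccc
Ttn (chr2:76982548-76982797, minus strand): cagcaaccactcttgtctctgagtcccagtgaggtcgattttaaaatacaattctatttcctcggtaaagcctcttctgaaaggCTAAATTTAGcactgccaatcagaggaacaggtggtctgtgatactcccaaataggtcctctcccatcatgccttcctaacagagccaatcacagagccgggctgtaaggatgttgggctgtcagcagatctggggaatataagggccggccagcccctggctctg
Myl3 (chr9:110763428-110763677, plus strand): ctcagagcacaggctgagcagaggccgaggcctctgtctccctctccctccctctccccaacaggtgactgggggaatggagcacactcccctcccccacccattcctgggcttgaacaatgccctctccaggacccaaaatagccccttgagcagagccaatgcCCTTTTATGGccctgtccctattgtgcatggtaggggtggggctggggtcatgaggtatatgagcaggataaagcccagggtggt
Acta1 (chr8:123894776-123895025, minus strand): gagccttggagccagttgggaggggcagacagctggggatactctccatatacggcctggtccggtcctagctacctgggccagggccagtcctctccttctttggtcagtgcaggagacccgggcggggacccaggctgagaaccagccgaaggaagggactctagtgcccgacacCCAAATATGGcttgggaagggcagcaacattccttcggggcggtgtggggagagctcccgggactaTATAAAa
Nppa (chr4:148000472-148000721, plus strand): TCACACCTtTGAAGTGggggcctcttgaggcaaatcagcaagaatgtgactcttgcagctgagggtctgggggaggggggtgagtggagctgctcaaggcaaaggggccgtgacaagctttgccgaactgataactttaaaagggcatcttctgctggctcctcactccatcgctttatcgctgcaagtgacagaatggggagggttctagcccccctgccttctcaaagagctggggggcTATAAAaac
The CArG box began 61 bases before the start of Myl7, 47 before Actc1, 85 before Myl3 and 73 before Acta1. Both strands were searched for each motif except the TATA box, which was searched on the strand of the gene, and no matches overlap in these 6 windows. Of the 114 genes that were at least 4-fold higher, 89 matched a RefSeq window, and 8 of them (8.99%) held a CArG box, against 439 of all 27025 genes with a window (1.62%). A MEF2 site was found in 6 of the 89 (6.74%) against 0.592% of all genes, a GATA motif (AGATAA) in 16 (18.0%) against 11.4%, an NKX2-5 motif in 3 (3.37%) against 11.4%, and a T-box motif in 1 (1.12%) against 1.30%. A TATA box stood in 10 of the 89 (11.2%) and in 8.94% of all genes. Of the 8 genes of the rule, 2 held a CArG box. These shares describe letters in windows of 250 bases and carry no test.

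Along the series from 4 to 8 sarcomere genes, Hand1, Bmp4 and Mab21l2 were lower towards 8 genes and Nkx2-5, Smyd1, Myl3 and Acta1 higher, as the plot of levels by number of genes shows. Whole lists of progenitor genes did not share one course. In cells with 3 or 4, 5 or 6, and 7 or 8 genes, the 7 juxtacardiac genes (genes of progenitors beside the crescent) summed to 647, 549 and 479 CPM at E8.0 and to 586, 539.6 and 204 CPM at E8.25. The 17 second heart field and outflow genes summed to 790.1, 867 and 1369 CPM and to 642, 615 and 1111 CPM. The 9 nascent mesoderm genes summed to 207, 452 and 212 CPM and to 28.4, 41.1 and 81.5 CPM. These sums lean on few genes. Over all early cardiomyocytes at E8.0, Mpped2 (434 CPM) and Tdgf1 (249 CPM) gave a large part of the 1204 CPM of the second heart field list. Lefty2 gave 272 of the 291 CPM of the nascent mesoderm list at E8.0 and 41.7 of 58.4 CPM at E8.25. Hand1, a bHLH factor of the lateral heart-forming mesoderm and later of the left ventricle, went at E8.0 from 413 CPM in cells with exactly 4 genes to 282, 77.3, 40.9 and 70.1 CPM in cells with 5, 6, 7 and 8 genes. At E8.25 it went from 327 to 286, 75.2, 14.0 and 71.7 CPM. Bmp4, a BMP ligand, was at 121, 114, 68.1, 41.4 and 17.6 CPM at E8.0 and at 168, 167, 100.3, 39.97 and 11.2 CPM at E8.25. Mab21l2, which together with Hand1 marks the juxtacardiac field, was at 77.2, 88.7, 37.0, 30.8 and 8.52 CPM, and at 95.7, 113, 75.2, 7.99 and 17.5 CPM. Among these 5 groups of cells, the 3 genes were highest in those with 4 or 5 of the sarcomere genes. In cells with 7 or 8, Hand1 (59.5 and 46.1 CPM) and Bmp4 (26.2 and 23.9 CPM) stood below the other cells (140 and 57.02 CPM, 43.8 and 38.9 CPM), and Mab21l2 (16.6 and 13.3 CPM) above them (5.74 and 10.0 CPM).

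Genes outside the rule rose along the same series. Myl3 went from 7.41 CPM with 4 genes to 1133 CPM with 8 at E8.0 and from 2.25 to 1369.9 CPM at E8.25. Acta1 stayed at 3.36 CPM or less up to 6 genes at E8.0 and then stood at 78.4 and 353 CPM with 7 and 8, and at E8.25 it was at 7.16 CPM or less and then at 136 and 556 CPM. Smyd1 rose in smaller steps, through 10.8, 25.4, 55.5, 112 and 213 CPM at E8.0 and 5.25, 10.53, 48.3, 138 and 256 CPM at E8.25. Nkx2-5 went from 87.9 to 588 CPM and from 36.4 to 597 CPM. Isl1 did not follow either course: at E8.0 it was at 87.6, 73.8, 127, 81.8 and 18.1 CPM and at E8.25 at 45.4, 36.8, 111, 118 and 79.6 CPM. It was thus highest with 6 genes at E8.0 and with 7 at E8.25. Fgf8, a growth factor of the second heart field, was highest with 7 genes at E8.0 (124 CPM) and with 8 at E8.25 (127 CPM). Wnt2, a ligand of the posterior and inflow region, was at 132 to 216 CPM in all these groups at E8.0 and at 169 to 346 CPM at E8.25.

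Cell cycle genes were lower in the cells with the most sarcomere genes. The 18 S phase genes summed to 2571 CPM in E8.0 cells with none of the 8 genes and to 1726 CPM in those with 7 or 8, and to 2745 and 1457 CPM at E8.25. The 18 G2/M genes summed to 4043 and 3398 CPM at E8.0 and to 3473 and 3048 CPM at E8.25. No single S phase or G2/M gene was 4-fold lower. Mitochondrial and fuel genes summed to 7147 CPM in early cardiomyocytes and 5990 CPM in the other cells at E8.0, and to 7471 and 6142 CPM at E8.25. Glycolysis genes differed in direction between the libraries, at 16324 against 14979 CPM at E8.0 and 18665 against 19263 CPM at E8.25.

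Outside the rule, cytoskeletal and sarcomere genes were among those that varied most between early cardiomyocytes. The 8 genes of the rule were left out of this ranking. Of these, Myl7 had a ratio of variance to mean of 50.8 at E8.0 and 63.9 at E8.25, and Actc1 one of 32.4 and 53.0. The ratio was not adjusted for the mean of a gene. After thinning to 10000 UMIs, 339 cells at E8.0 and 75 at E8.25 were compared by the ratio of variance to mean over cells, which is near 1 for counting noise alone. Its median over 2502 genes was 1.09 and 1.12. Tpm1 (tropomyosin) had a ratio of 25.2 and 31.3 and Actb (cytoplasmic actin) one of 24.9 and 36.2. Phlda2, an imprinted gene best known from the placenta, came next at 13.3 and 16.9, and Cdkn1c, an imprinted cell cycle inhibitor, was also among the 15 highest at 8.62 and 11.3. Acta2 (12.1 and 23.0), Ankrd1 (9.98 and 16.9), Myl3 (8.94 and 16.2), Tnnc1 (7.84 and 15.6), Tdgf1 (6.25 and 6.60), Acta1 (6.13 and 9.18), Myl9, Hspb1, Ptma, Hist1h2ap and Malat1 made up the rest. The histone gene Hist1h2ap, which is expressed in S phase, had ratios of 10.0 and 10.4.

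Early cardiomyocytes were divided by Isl1 and Tbx5, the genes by which the study told second from first heart field cells. After thinning, 81 of 339 cells at E8.0 had a UMI of Isl1 without Tbx5 (23.9%, 95% interval 19.5 to 28.8%), 92 had Tbx5 without Isl1 (27.1%), 18 both (5.31%) and 148 neither (43.7%). At E8.25 the numbers were 23 (30.7%, 20.5 to 42.4%), 16 (21.3%), 9 (12%) and 27 (36%) of 75. The share of erythroid cells with a UMI was taken as the background, though that set held some early cardiomyocytes. It was 2.20% and 7.63% for Isl1 and 0% and 1.75% for Tbx5. A cell without a UMI may still express the gene, so the 4 classes are ranges of detection and not cell types. The Isl1 cells had a median of 6 of the 8 sarcomere genes at both stages and the Tbx5 cells one of 8 at E8.0 and 7 at E8.25, and differences between the classes cannot be told apart from differences in the number of sarcomere genes.

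**Figure D2:**
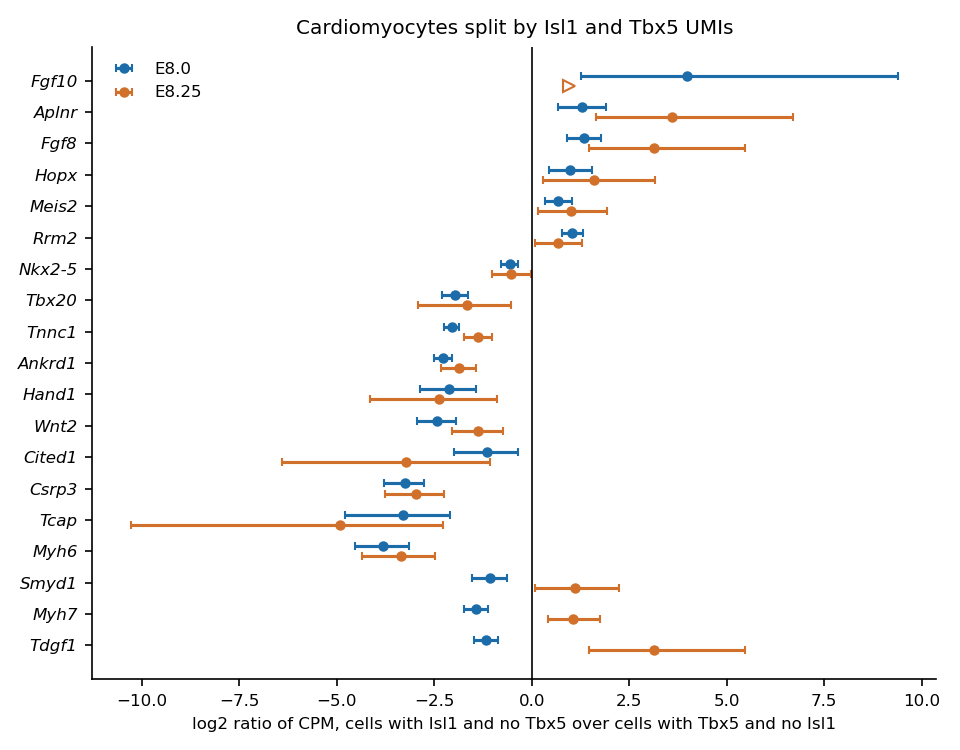
Log2 ratio of CPM in cells with Isl1 and no Tbx5 over cells with Tbx5 and no Isl1, at E8.0 (blue, 81 and 92 cells) and E8.25 (orange, 23 and 16 cells), with 95% counting intervals and an open triangle at the lower bound where the Tbx5 cells had no UMI. Fgf10 to Rrm2 lie right of 0 in both libraries, Nkx2-5 to Myh6 left of 0, and Smyd1, Myh7 and Tdgf1 on opposite sides.

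Of 164 listed genes compared, 8 were higher in Isl1 cells and 22 higher in Tbx5 cells with counting intervals beyond 0 in both libraries, and 4 had intervals on opposite sides. The rule's own genes gave 7 of the 22 and 1 of the 4, so that outside the rule 8 of 156 genes were higher in Isl1 cells, 15 higher in Tbx5 cells and 3 on opposite sides. These counts cover listed genes only, with no share over all measured genes beside them. Whether they exceed that share was not tested. The growth factor Fgf10 was at 17.3 CPM in Isl1 cells and 1.09 CPM in Tbx5 cells at E8.0, and at 52.2 and 0 CPM (12 and 0 UMIs) at E8.25. Fgf8 was at 179 against 70.7 CPM and at 165 against 18.8 CPM. Aplnr, the apelin receptor, was at 92.6 against 38.0 CPM and at 152 against 12.5 CPM, and Hopx, a homeodomain-only cofactor, at 98.8 against 50 CPM and at 113 against 37.5 CPM. The levels were summed over thinned cells, and the lowest values rest on very few UMIs or none. This holds for Fgf10 in Tbx5 cells at both stages, and for Fgf8 and Aplnr in them at E8.25. Meis2, a homeodomain cofactor, was at 207 against 129 CPM at E8.0 and higher at E8.25 too, and the S phase gene Rrm2 at 433 against 210.0 CPM and at 348 against 219 CPM.

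The Tbx5 cells stood higher in Hand1, Wnt2 and Tbx20 and in part of the sarcomere genes outside the rule. Hand1 was at 112 CPM against 25.9 in Isl1 cells at E8.0 and at 112.5 against 21.7 CPM at E8.25. Wnt2 was at 264 against 49.4 CPM and at 362.5 against 139 CPM, and Tbx20 at 438 against 112 CPM and at 137.5 against 43.5 CPM. Of the 23 other sarcomere genes, 8 were higher in Tbx5 cells of both libraries and none in Isl1 cells. Csrp3 was at 435 against 45.7 CPM and at 644 against 82.6 CPM, Tcap at 72.8 against 7.41 CPM and at 131 against 4.35 CPM, and Tnni3 (cardiac troponin I, the later form) at 91.3 against 3.70 CPM and at 187.5 against 0 CPM (30 and 0 UMIs). Cited1, a transcriptional coregulator of the ventricle, was at 52.2 against 23.5 CPM and at 81.2 against 8.70 CPM. The 4 genes on opposite sides were Smyd1, Myh7, Tdgf1 and Mpped2. Tdgf1 was lower in Isl1 cells at E8.0 (147 against 329 CPM) and higher in them at E8.25 (165 against 18.8 CPM), where the Tbx5 value rests on 3 UMIs. The E8.25 values of Tcap and Cited1 in Isl1 cells rest on fewer UMIs still. Myh7 was at 136 against 364 CPM at E8.0 and at 352 against 169 CPM at E8.25.

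Between E8.0 and E8.25 no gene of the other sarcomere list was past 2-fold in the summed cells. Myl1, kept in the smooth and skeletal muscle contractile list, was past 2-fold lower. At E8.25 5 of 11 atrial and inflow genes stood higher and Tbx20, Lefty2, Tdgf1, Nodal and Lefty1 lower. Of 10862 genes with at least 20 UMIs over both sums, 93 were higher at E8.25 with the whole counting interval beyond 2-fold (0.856%) and 76 lower (0.700%), the latter with Ttn, a gene of the rule. No test stands behind these counts, which compare 1 library with 1 library. The split of 55.0% higher among the genes past 2-fold was 43.9% with a minimum of 100 UMIs and 66.7% after thinning. Many of the differences were not particular to cardiomyocytes: the other cells were past 2-fold in the same direction for 45 of the 93 higher genes and 58 of the 76 lower ones. For 12 and 3 of these genes the ratio in the other cells had the opposite sign, whatever its size. The cells with 7 or 8 sarcomere genes were 274 of 395 at E8.0 and 34 of 75 at E8.25, so the E8.25 sum holds more cells near the threshold. Restricted to those cells, 54 of 9993 genes were higher and 39 lower, and 68 of these were among the 169 above.

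**Figure D3:**
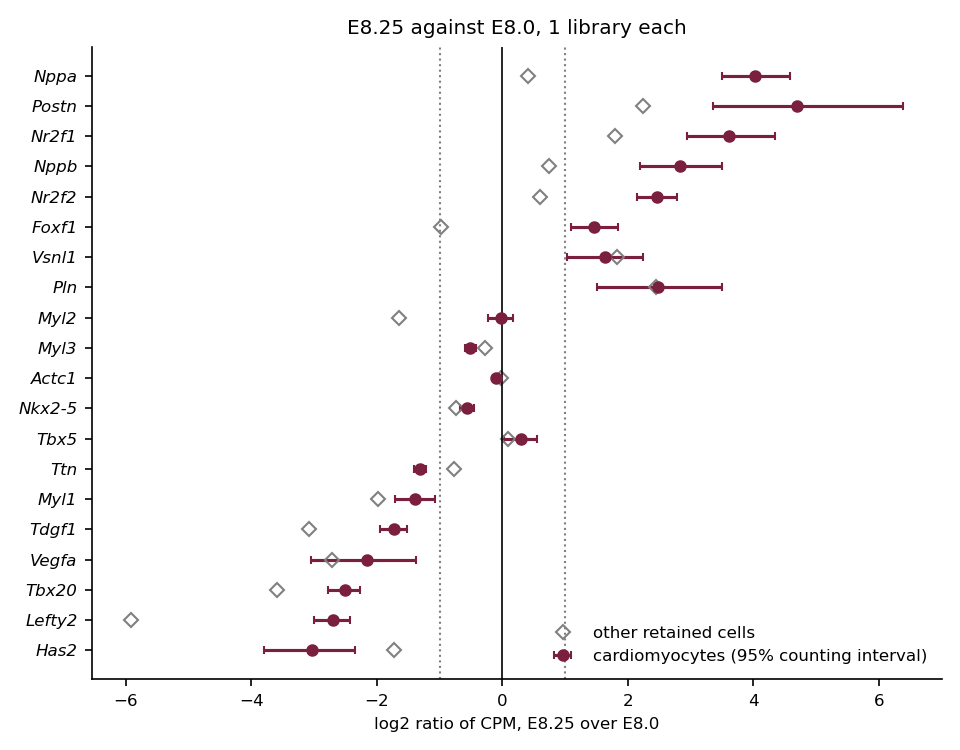
Log2 ratio of CPM at E8.25 over E8.0 for 20 genes in early cardiomyocytes (filled points, bars are 95% counting intervals) and in the other retained cells (open diamonds), with dotted lines at 2-fold. Nppa to Pln lie beyond 2-fold on the higher side, Myl2 to Tbx5 within it, and Ttn to Has2 beyond it on the lower side.

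No gene of the other sarcomere list (21 measured), the adhesion list (12), glycolysis (19), mitochondrial and fuel use (17), S phase (18) or G2/M phase (18) was past 2-fold in either direction. Myl2 was at 111 and 108 CPM (log2 ratio -0.03, interval -0.23 to 0.16), Actn2 (alpha-actinin of the Z-disc) at 25.4 and 23.9 CPM (-0.09, -0.51 to 0.33) and Csrp3 at 269 and 264 CPM (-0.03, -0.15 to 0.10). The whole interval lay within 2-fold for these 3 genes and for 18 of the 21 in all, as far as counting error goes. Tnni3 was at 54.4 and 84.6 CPM (0.64, 0.40 to 0.87), and in cells with 7 or 8 sarcomere genes at 77.8 and 191 CPM (1.30, 1.06 to 1.54), the 1 gene of the list past 2-fold in those cells. The titin gene Ttn, a gene of the rule, was lower at 967 and 390.3 CPM (-1.31), and in cells with 7 or 8 genes at 1346 and 827 CPM (-0.70).

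Of the 11 genes of the atrial and inflow list, 5 (Nr2f1, Nr2f2, Tbx18, Vsnl1 and Nppa) were past 2-fold higher at E8.25 and none lower, with a median log2 ratio of 1.63 against 0.04 over all genes. In cells with 7 or 8 sarcomere genes 3 of 9 measured (Nr2f1, Nr2f2 and Nppa) were past 2-fold, with a median of 0.94. Nr2f1 and Nr2f2, nuclear receptors that specify the atria, were at 2.70 CPM (23 UMIs) and 33.0 CPM (87 UMIs), a log2 ratio of 3.61 (2.93 to 4.34), and at 15.3 and 84.2 CPM, a log2 ratio of 2.46 (2.15 to 2.79). Cells with all 8 genes held 5 of the 87 Nr2f1 UMIs and 11 of the 222 Nr2f2 UMIs at E8.25, and 8 of 23 and 24 of 130 at E8.0, and in cells with 7 or 8 genes the log2 ratios were 3.13 and 2.43. Nr2f1 had a log2 ratio of 1.80 in the other cells as well and Nr2f2 one of 0.60. Tbx18, a T-box factor of the sinus venosus, was at 1.53 and 8.34 CPM (2.45, 1.40 to 3.56). Vsnl1, a calcium sensor of the inflow tract, was at 5.87 and 18.2 CPM (1.63, 1.03 to 2.23), but its interval began at 0.95 without the highest cell of each library. In the other cells Vsnl1 was at 0.732 and 2.60 CPM, a log2 ratio of 1.83, and Tbx18 had one of 0.64. Shox2, Angpt1, Bmp2, Meis2, Hcn4 and Kcna5 were not past 2-fold, with log2 ratios from -0.34 to 2.11.

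The natriuretic peptide genes, which mark the working chamber myocardium, were also higher at E8.25, but in few cells. Nppa went from 4.23 CPM (2.96 to 5.85) to 68.6 CPM (59.0 to 79.4). A UMI of Nppa was found in 11 of 395 and 13 of 75 cells, and 140 of the 181 UMIs at E8.25 came from 1 cell. Without the highest cell of each library it was at 2.94 and 15.8 CPM, a log2 ratio of 2.42 (1.67 to 3.20) in place of 4.02 (3.50 to 4.58). Nppb was at 3.52 and 25.03 CPM, a log2 ratio of 2.83, or 2.51 without the highest cells. Pln stood at 15 UMIs and 26 UMIs (log2 ratio 2.49, 1.51 to 3.51), of which cells with all 8 sarcomere genes held 4 and 2. In cells with 7 or 8 genes its log2 ratio was 2.93 (1.51 to 4.42). Foxf1, a forkhead factor of splanchnic mesoderm, was at 15.4 and 42.5 CPM in early cardiomyocytes (1.47, 1.09 to 1.84) while it was at 39.4 and 20.04 CPM in the other cells. Of its 112 UMIs at E8.25, 3 lay in cells with all 8 genes, against 21 of 131 at E8.0, and in cells with 7 or 8 genes it was at 7.52 and 34.6 CPM (2.20). The interval of Foxf1 began at 0.98 without the highest cells.

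The other named genes that were higher at E8.25 included matrix and chemokine genes and haemoglobins. Postn (periostin, a matrix protein) was at 0.587 and 15.2 CPM, Lum (lumican) at 3.17 and 38.7 CPM and Cxcl12 (a chemokine) at 1.06 and 14.4 CPM. Without the highest cell of each library Postn was at 0.470 and 8.85 CPM and Lum at 2.24 and 18.9 CPM. Of the 40 Postn UMIs at E8.25, 32 came from 3 cells. Pbld2 went from 3 to 34 UMIs, and Gm29666 and Gm3839 are gene models. Hbb-bh1 stood at 154 and 1151 CPM, Hba-a1 at 30.2 and 395 CPM, Hbb-y at 9.51 and 380.03 CPM and Hbb-bs at 0.704 and 11.0 CPM. Without the highest cell of each library Hbb-bh1 was at 54.4 and 1151 CPM. The haemoglobins were also far higher in the other cells of the E8.25 library, and their part in the scaling was checked: with haemoglobin, mitochondrial and ribosomal protein genes left out of the totals, 86 genes were higher and 70 lower.

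Tbx20 and 4 genes known from Nodal signalling were lower at E8.25. Tbx20, a T-box factor needed for the growth of the heart tube, was at 299 CPM (288 to 311) and 52.3 CPM (44.0 to 61.8), a log2 ratio of -2.52 (-2.77 to -2.27). In the other cells it was at 45.8 and 3.78 CPM (-3.60), and in cells with 7 or 8 sarcomere genes at 368 and 83.3 CPM (-2.14). Lefty2, a Nodal inhibitor of the left side, was at 272 and 41.7 CPM (-2.71, -3.00 to -2.43) and in the other cells at 73.4 and 1.21 CPM. Tdgf1 was at 249 and 75.1 CPM (-1.73, -1.95 to -1.52), and in cells with 7 or 8 genes, where its interval was no longer past 2-fold, at 358 and 169 CPM (-1.08). Nodal itself had 165 UMIs at E8.0 and 1 at E8.25, and Lefty1 had 60 and 0 UMIs, at least 6.19-fold lower when set against a floor of 3 UMIs over the E8.25 sum. Cfc1 (Cryptic, another Nodal co-receptor) was at 121 and 76.6 CPM (-0.66, -0.89 to -0.44), not past 2-fold, and no list of Nodal genes was set up.

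Of the remaining lower genes, Has2 (hyaluronan synthase of the cardiac jelly) was at 55.6 and 6.83 CPM (-3.03), Il17rd (an inhibitor of FGF signalling) at 44.0 and 5.69 CPM (-2.95) and Vegfa at 23.6 and 5.31 CPM (-2.15). Myl1 was at 89.3 and 34.1 CPM (-1.39), but its log2 ratio was -0.77 in cells with 7 or 8 genes. Gm5611, Gm9844, Rpl7a-ps3, Rpl36-ps3, Gm6594 and Gm10126 are gene models or pseudogenes, whose reads may be shared with a parent gene, and 22 of the 76 lower genes had such names, against 10 of the 93 higher ones.

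The contrast of early (E8.0 and E8.25) with late cardiomyocytes (E9.5 and E10.5, 805 cells by the same rule) had 2 libraries a side and was tested on the summed counts of each library with edgeR's quasi-likelihood test. The libraries of a side are not replicates of one stage, so the spread within a side includes a stage difference, and stage and dissected region cannot be told apart. Of 11723 genes, 81 were higher in early cardiomyocytes (0.691%) and 260 lower (2.22%) at a Benjamini-Hochberg adjusted p under 0.05, and 2645 had an unadjusted p under 0.05. The counts with DESeq2 were 207 and 498. They ran from 49 (without E8.25) to 289 (without E9.5) for higher genes and from 99 (without E8.0) to 540 (without E9.5) for lower genes when 1 library was left out. Among the 260 were 5 of the 8 genes of the rule (Myh6, Actc1, Myl4, Myh7 and Tnni1), which had a part in choosing the cells, and outside the rule 255 of 11715 genes were lower (2.18%) and 81 higher. The 8 genes are given as levels only. Actc1 was at 2359.8 and 2198 CPM early and 5145 and 5212 CPM late, and Myh6 at 191 and 178 CPM against 455 and 507 CPM.

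**Figure D4:**
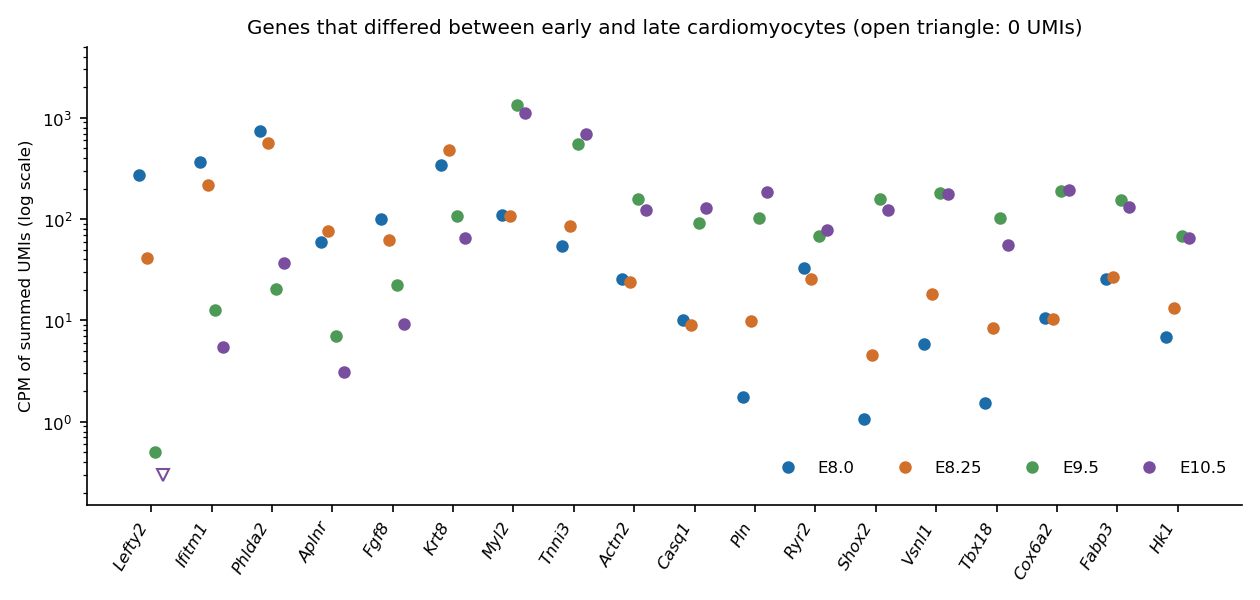
Levels (CPM of the summed UMIs, log axis) of 18 genes in cardiomyocytes of each of the 4 libraries, with an open triangle for 0 UMIs. Lefty2 to Krt8 are higher in both early libraries than in both late ones, and Myl2 to Hk1 lower.

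Of 22 sarcomere genes outside the rule that were tested, 13 were called lower in early cardiomyocytes and none higher, with a median log2 fold change of -1.11 against 0.004 over all tested genes. Myl2, the ventricular regulatory light chain, was at 111, 108, 1337 and 1120 CPM in the libraries from E8.0 to E10.5, the order used throughout (log2 fold change -3.41 early over late, SE 0.20, adjusted p = 0.00679 by edgeR). Tnni3 was at 54.4, 84.6, 549 and 693 CPM (-3.101, SE 0.26, adjusted p = 0.00976 by edgeR), and Actn2 at 25.4, 23.9, 158 and 124 CPM (-2.44, SE 0.22, adjusted p = 0.0101 by edgeR). The early and late values of these 3 genes did not overlap, which was so for every called gene and for 55.1% of all genes tested. Lmod2, Csrp3, Myom1, Myl3, Smpx, Mybpc3, Des, Tmod1 and Tnnc1 were lower too. Myoz2 had no UMI in either early library and was at 5.78 and 16.3 CPM late, at least 41.0-fold lower against a floor of 3 UMIs over both early sums. Of 13 smooth and skeletal muscle contractile genes, Acta2, Myl9 and Tnni2 were lower. The fits without E8.0 or without E8.25 left 1 early library, whose spread was then taken from the late ones, and lost the call of 24 and 25 of the 64 named genes. In this paragraph these were Myom1, Mybpc3, Tmod1, Acta2, Myl9 and Tnni2 in both fits, Myoz2 without E8.0, and Csrp3, Myl3, Smpx, Des and Tnnc1 without E8.25.

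The calls among calcium and mitochondrial genes were all on the lower side too, though most of these genes were not called. Of 20 calcium handling and excitation genes, 6 were lower and none higher (median -1.03). Pln was at 1.76, 9.86, 103 and 186 CPM (-4.90, SE 0.70, adjusted p = 0.0290 by edgeR) and Casq1 (calsequestrin, a calcium store) at 10.1, 9.10, 91.0 and 128 CPM (-3.41). Trdn, Cacna1h, Tmem38a and Ryr2 were the other 4, and the last 3 of these were not called without E8.0, without E8.25 or without E10.5. Of 18 mitochondrial and fuel genes, 5 were lower: Cox6a2, the muscle form of a cytochrome oxidase subunit, at 10.4, 10.2, 188 and 194 CPM (-4.12, SE 0.19, adjusted p = 0.00358 by edgeR), and Fabp3, Ppargc1a, Slc25a4 and Ckb, the last 2 not without E8.0 or E8.25. Chchd10 (a mitochondrial protein) was at 50.01, 80.03, 561 and 648 CPM (-3.16). Of 19 glycolysis genes, Ldhb and Hk1 were lower and none was higher, with a median of 0.29. The S phase (18 tested, median 0.68) and G2/M genes (18 tested, median 0.42) gave no call, nor did the erythroid markers. On simulated counts the fit called only 20 of 98 genes with a log2 change of 1. A missing call, here or below, therefore does not show that a gene was unchanged.

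Regional genes parted in both directions. In the atrial and inflow list 4 of 11 were lower in early cardiomyocytes: Shox2, a sinus node factor, at 1.06, 4.55, 158 and 122 CPM (-5.97, SE 0.53, adjusted p = 0.0101 by edgeR), Vsnl1 at 5.87, 18.2, 183 and 179 CPM (-3.99), Tbx18 at 1.53, 8.34, 103 and 55.6 CPM (-4.31), and Kcna5. In the ventricular list Myl2 and Lbh were lower. The second heart field and outflow list gave 4 higher and 2 lower of 17 (median 1.39). Aplnr was at 59.9, 76.2, 7.07 and 3.098 CPM (3.72, SE 0.38, adjusted p = 0.0138 by edgeR), Irx3 at 61.0, 55.0, 13.9 and 4.07 CPM (2.69) and Fgf8 at 101, 61.8, 22.2 and 9.30 CPM (2.42), with Irx5 the other higher gene. Irx3 and Fgf8 had adjusted p-values of 0.0484 and 0.0487 by edgeR and lost the call with size factors of the DESeq2 kind and without E8.0 or E8.25. Kcna5, Lbh and Hey1 also lost it without either early library, and Irx5, Tcf21 and Hey1 in some of the other fits. Sema3c, a guidance ligand of the outflow tract, was lower at 3.05, 4.93, 38.3 and 55.4 CPM (-3.57), as was Tcf21. Of 19 cardiac transcription factors only Hey1 was called (lower), and the median of that list was 0.00.

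Other genes higher in early cardiomyocytes were led by Lefty2, Ifitm1 and Phlda2. Lefty2 was at 272, 41.7, 0.498 and 0 CPM (adjusted p = 0.0290 by edgeR). Ifitm1, an interferon-induced membrane protein of early mesoderm, was at 369, 217, 12.7 and 5.42 CPM (5.04, SE 0.48, adjusted p = 0.0124 by edgeR), and Phlda2 at 736, 558, 20.4 and 36.8 CPM (4.60, SE 0.34, adjusted p = 0.00976 by edgeR). In the other cells Phlda2 was at 1409.9, 188, 18.3 and 3.56 CPM, lower at each later stage, whereas in cardiomyocytes the E10.5 value lay above that of E9.5. Cfc1 was at 121, 76.6, 9.76 and 9.10 CPM (3.47), and Car4, Gm26917, Prtg, Spin2c and Slc9a3r1 were the other leading genes. Among marker lists of other cell types, Krt8 and Krt18 (2 of 5 epithelial markers tested), Etv2 (1 of 11 endothelial) and Tcf15 (1 of 6 paraxial) were higher early, and Sparc, Tcf21 and Tbx18 (3 of 8 mesothelial) lower. The calls of Etv2 and Tcf15 were lost with the highest doublet scores removed, and that of Etv2 also with at least 7 genes. Krt8 was at 338, 487, 106 and 64.9 CPM (2.33, adjusted p = 0.0224 by edgeR). On the lower side, Fxyd1, Nfib and Ndrg2 were the named genes outside these lists, at 2.93 to 8.34 CPM early and 36.7 to 130 CPM late. Dsp, Itga6 and Ctnna3 of the 12 adhesion genes and Erbb4 and Sfrp1 of 27 signalling genes were lower as well. Itga6, Ctnna3 and Sparc were not called without E8.0 or E8.25, Sfrp1 and Nfib not without E8.0, and Krt18 not without E8.25.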

How the data were processed

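Single-cell RNA libraries (10x Genomics 3′ version 2 chemistry) of sorted Mesp1-lineage cells were analysed, 1 library for each of the stages E8.0, E8.25, E9.5 or E10.5. The authors aligned reads to mm10 and counted with Cell Ranger 3.1.0 (per the labels and the submitters' processing notes), and the deposited values are raw UMI counts of 27998 genes in barcodes called as cells, not normalized. The kit reads 3′ ends and free RNA enters all droplets, so low counts of abundant genes need not come from the cell.

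Cells with fewer than 1000 genes or more than 10% mitochondrial UMIs were removed (4, 2, 3 and 28). Counts of early cardiomyocytes were summed per library and given as CPM. The members, gene lists and tests were chosen with earlier results of these data known. Intervals are exact (Clopper-Pearson for shares, Poisson for sums, conditional binomial for ratios) at 95%, and cover counting error only. A gene was past 2-fold when its whole interval was, among genes with 20 or more UMIs, and a value of 0 was set against a floor of 3 UMIs. Thinning drew 10000 UMIs per cell without replacement. Doublets were scored with Scrublet (scanpy 1.11.5) and left in, except in an alternative that removed the highest scores at 0.8% per 1000 cells.

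Early and late sums were compared in edgeR 4.0.16 (filterByExpr, TMM, quasi-likelihood test, Benjamini-Hochberg over all genes tested) with limma 3.58.1 in R 4.3.3. DESeq2 1.42.0 was an alternative. The fit was tested on simulated counts with known changes. It called 93 of 100 genes with a log2 change of 2, 20 of 98 with one of 1, and 9 of 11350 unchanged genes. Python 3.11.15, NumPy 2.4.6, pandas 2.3.3, SciPy 1.17.1 and matplotlib 3.10.9 were used for the rest. Named genes were the 8 genes of the rule, the listed genes, the 20 with the highest smaller ratio to other cells at 20 CPM or more, the 12 higher and 12 lower at E8.25 by the nearest interval bound, the 12 higher and 12 lower called early against late at 50 CPM or more, and the 15 most variable at a mean of 0.5 UMI or more. The ranking by variability left out mitochondrial genes and the 8 genes of the rule. Promoter windows came from RefSeq (GRCm38.p6, the build mm10 stands for). Values of some listed genes are not reported here.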

Additional observations from a re-analysis of the deposited data

Results flagged for a closer look

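Of 268 listed genes, 7 lay on opposite sides of the other retained cells at E8.0 and E8.25, with counting intervals on opposite sides of 0 and log2 ratios (early cardiomyocytes over other cells) at least 1 apart. The difference between the stages was not tested, since each stage had 1 library. Hand1 had a log2 ratio of -0.43 at E8.0 (104 against 140 CPM) and 1.28 at E8.25 (139 against 57.02 CPM), where most of the change lay in the other cells. In cells with 7 or 8 of the sarcomere genes its ratios were -1.24 and -0.36, on the same side at both stages. Rspo3, a WNT enhancer, had -0.87 and 1.43 and in cells with 7 or 8 genes -1.22 and -0.29, and Sfrp1, a WNT inhibitor, had -0.35 and 0.66 and then -0.68 and -0.09. Foxf1 (-1.36 and 1.08), Cited1 (-0.88 and 0.85), Pdgfra, the receptor of PDGF-A (-0.27 and 0.86), and Spint2, a protease inhibitor (-0.44 and 0.57), had ratios of opposite sign in cells with 7 or 8 genes too. These were -2.38 and 0.76, -0.75 and 1.25, -0.51 and 0.46, and -0.51 and 0.60. In those cells the E8.25 interval of Spint2 was -0.07 to 1.21 and included 0. The E8.25 intervals of Hand1, Rspo3 and Sfrp1 in them included 0 as well. The share of early cardiomyocytes with 7 or 8 genes differed between the stages, as given above, and its part in these ratios is seen only in that comparison.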

How the results depend on the processing

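The share of early cardiomyocytes at E8.0 (5.21%) and E8.25 (2.54%) moved with the number of genes asked for, to 6.77% and 4.84% with at least 4 genes, 4.38% and 1.69% with at least 6, 3.62% and 1.15% with at least 7, and to 4.30% and 1.78% after thinning. Their log2 ratio of -1.04 was -0.48 with at least 4 genes and -1.65 with at least 7, and negative throughout. The 93 higher and 76 lower genes at E8.25 were 54 and 39 with at least 7 genes and 38 and 19 after thinning, and 43 genes were higher with 100 UMIs or more. Scaling with TMM gave 83 and 88. The 114 genes 4-fold above other cells were 216 at 5 CPM and 172 with at least 7 genes. Early against late, the 81 higher and 260 lower genes were 207 and 498 with DESeq2, 623 and 1214 without a filter on low counts, and 138 and 425 with at least 7 genes. Leaving out 1 library at a time gave 49 to 289 higher and 99 to 540 lower genes. In these fits the lone library of a side was assumed to vary like the other side. Of the 64 named early-late genes none turned direction, and DESeq2 and the fit without a filter lost none, RLE scaling 2, at least 7 genes 9, thinning 7 and doublet removal 5. The loss of 1 library lost 24 (E8.0), 25 (E8.25), 2 (E9.5) and 8 (E10.5). Leaving out the highest cell of a gene was chosen after seeing the data. The causes of these changes were not tested. No paired analysis was possible because each stage had 1 library and the labels give no shared replicate numbers. At these depths a gene at 0 in the E8.25 sum could still be at up to 1.14 CPM, and at E8.0 up to 0.352 CPM.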
